A study of Homo sapiens with 6 samples.

Results

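The Schlafen family is described here through the 7 genes listed as Slfn1, Slfn2, Slfn3, Slfn4, Slfn5, Slfn8 and Slfn9 among the 22989 genes of the deposited count table, found by their symbols. They were followed in 3 libraries labelled LINC00115 KD and 3 labelled WT, called control here. All 6 were described as PTX-resistant (paclitaxel-resistant) MDA-MB-231 BCSC. This cell line comes from a human triple-negative breast tumour. BCSC stands for its stem-like fraction, which was sorted by strong aldehyde dehydrogenase activity. A short hairpin RNA against the long non-coding RNA LINC00115 was introduced into the KD cells, which were selected with puromycin after infection, while the labels call the control cells wild type and do not say whether they carry a control hairpin. The study's text names the hairpin sh115-2 for its RNA-seq comparison, while the labels describe the KD libraries as sh115-1 to sh115-3 and title them as replicates. The labels do not say that the libraries came from separate cultures. The p-values therefore measure only the spread between these libraries. The genes were chosen with their KD to control difference known, so that their values are given as a description without a test.

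Schlafen proteins, named after the German word for sleeping, were found in mice as genes that change while T cells mature and that can hold back cell growth. They share an N-terminal core that binds RNA, and several members cut or protect transfer RNA. The short members, Slfn1 and Slfn2, have little beyond this core. Slfn3 and Slfn4 add a linker, and the long members, among them Slfn5, Slfn8, Slfn9 and Slfn14, also carry a helicase-like C-terminal part. Many of the genes are induced by interferon, through transcription factors of the STAT and IRF families.

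The family differs between species, and the rows of the table are those of the mouse family. The table held 10 rows whose symbol starts with Slfn, of which 3 (Slfn5, Slfn14 and Slfnl1) equal a current human symbol apart from case. Of the 6 human genes SLFN5, SLFN11, SLFN12, SLFN12L, SLFN13 and SLFN14, only SLFN5 and SLFN14 have a row under their name. Slfn1, Slfn2, Slfn4, Slfn8 and Slfn9 are mouse symbols with no human gene of that name, and Slfn3 is listed in the human reference only as an older name of SLFN12. Beyond this family, the table held 4648 rows with Gm names and 1129 with Rik names, which are forms of mouse gene names. The labels give the organism as human and the processing notes name a human genome. How this goes with a table of mouse symbols is not given in the sources used here. Whether the counted RNA came from human or from mouse cells was not tested. In human build GRCh37 (hg19) the SLFN genes lie in a row on chromosome 17, from SLFN5 (33570090 to 33600674, plus strand) to SLFN14 (33871004 to 33887838, minus strand), next to UNC45B. Rows with mouse symbols are printed without positions, since the genome used here is human. There were 0 rows named LINC00115, so the knockdown could not be checked in these counts and every direction rests on the labels.

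Library totals lay between 36979221 and 38799331 counts. Pairs of libraries within a group had a chi-square per degree of freedom between 3.88 and 7.60, above the 1 of pure sampling noise, so none was a copy of another. Of the 7 genes, 6 passed the filter on low counts and were tested among 13497 genes with edgeR's quasi-likelihood test. Slfn1 did not pass it. A gene was called at an adjusted p under 0.05 and a fold change over 2, and 10.2% of the genes tested were called higher and 9.98% lower in the KD libraries. Of the 6 Schlafen genes tested, 5 were called higher and 0 lower, with the same numbers by DESeq2's Wald test, and the sixth, Slfn9, changed by less than the fold threshold. Nothing is read from these counts, since the genes were chosen on this contrast, and Slfn5 passed the filter only through its counts in the KD libraries.

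Slfn2 was 7.15-fold higher in the mean of the KD libraries than in that of the controls. This short member is known in mice for keeping T cells and monocytes quiescent and for protecting transfer RNA from cleavage. It had 1477, 1718 and 1845 counts in the control libraries and 11970, 11905 and 12200 in the KD libraries. As normalized CPM, which are counts scaled to the library total, these were 39.2, 45.5 and 48.8 against 309.5, 324.3 and 321.2. The lowest KD library was thus far above the highest control, and the control libraries were the more scattered group, with a coefficient of variation of 10.98% against 2.46%. The mean rose from 44.5 ± 4.89 to 318.3 ± 7.83 normalized CPM (SD, n = 3 libraries in each group). The fitted log2 fold change was 2.84 with a standard error of 0.05.

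Slfn1, the other short member and the one first described as a growth inhibitor of thymocytes, was barely counted. It had 0 counts in each control library and 6, 16 and 4 counts in the KD libraries, the most in KD library 2. The sum of 26 KD counts was at least 8.54-fold higher than the 3 counts that a count of 0 over the control group allows, a bound that covers counting error only. At this depth its level in the control cells was not detectable.

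Slfn4 showed the widest gap of the family. It is known in mice as an interferon-induced and Toll-like receptor-induced gene of macrophages and other myeloid cells. In the controls 114, 106 and 172 reads were counted, against 9138, 9127 and 9153 under KD. The normalized level was 3.03, 2.81 and 4.55 CPM in the controls and 236.2, 248.6 and 241.0 CPM in the KD libraries. Control library 3 was the highest of its group, with a spread within the controls of 27.5%, where counting alone would give about 8.75%. The means were 3.46 ± 0.9503 and 241.9 ± 6.24 normalized CPM (SD, n = 3), a ratio of 69.9 and a log2 fold change of 6.13 (standard error 0.08). DESeq2's Wald test gave the same log2 fold change a larger standard error, of 0.195. Only 68 of the genes tested had a larger fitted log2 fold change toward KD.

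Slfn3, the closest relative of Slfn4 in structure, is known in rodents for its part in the differentiation of gut epithelium. It had 1452, 1617 and 1475 counts in the controls and 3592, 3743 and 3700 in the KD libraries, with no overlap. Its mean rose from 40.1 ± 2.35 to 97.4 ± 4.55 normalized CPM (SD, n = 3), a log2 fold change of 1.28 (standard error 0.05). Slfn3 and Slfn4 thus lay far apart, at ratios of 2.43 and 69.9. Whether reads were shared or dropped between such close copies is not given in the sources used here, so the split between them is uncertain, and the same holds for Slfn8 and Slfn9.

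Slfn5, the long member with a direct human counterpart of the same name, is an interferon-induced nuclear protein. It had 2, 0 and 1 counts in the controls, against 62, 40 and 57 under KD. It was near the limit of detection in every control and low but clearly counted in each KD library, at 1.603, 1.090 and 1.501 normalized CPM. The 159 KD counts against 3 control counts give a ratio of 52.2 with an exact 95% interval from 17.5 to 255.9 for counting error only. Slfn5os, a gene antisense to it, had 1 count in all, in KD library 2.

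Slfn8 and Slfn9 are long members that resemble each other in sequence. Slfn8, known for its part in T cell development in mice, had 3020, 3182 and 3259 counts in the controls and 7984, 8468 and 8219 in the KD libraries. Its mean was 83.6 ± 3.11 and 217.8 ± 12.2 normalized CPM (SD, n = 3), a ratio of 2.61 and a log2 fold change of 1.38 (standard error 0.04).

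Slfn9 was counted at 11199, 11080 and 10891 in the controls and at 11973, 12211 and 12236 in the KD libraries. The normalized levels were 297.2, 293.5 and 288.2 CPM against 309.5, 332.6 and 322.2 CPM, so that the groups stood apart by a narrow margin, between control library 1 and KD library 1. The means of 293.0 ± 4.53 and 321.4 ± 11.6 normalized CPM (SD, n = 3) give a ratio of 1.10 and a log2 fold change of 0.13 (standard error 0.03). Slfn9 was the member with the smallest difference, and 41.4% of all genes tested had a larger log2 fold change toward KD.

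In all 7 genes the lowest KD library lay above the highest control library, which also held for 37.8% of the genes tested. The plot of the family by library shows how unlike these gaps were.

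**Figure D1:**
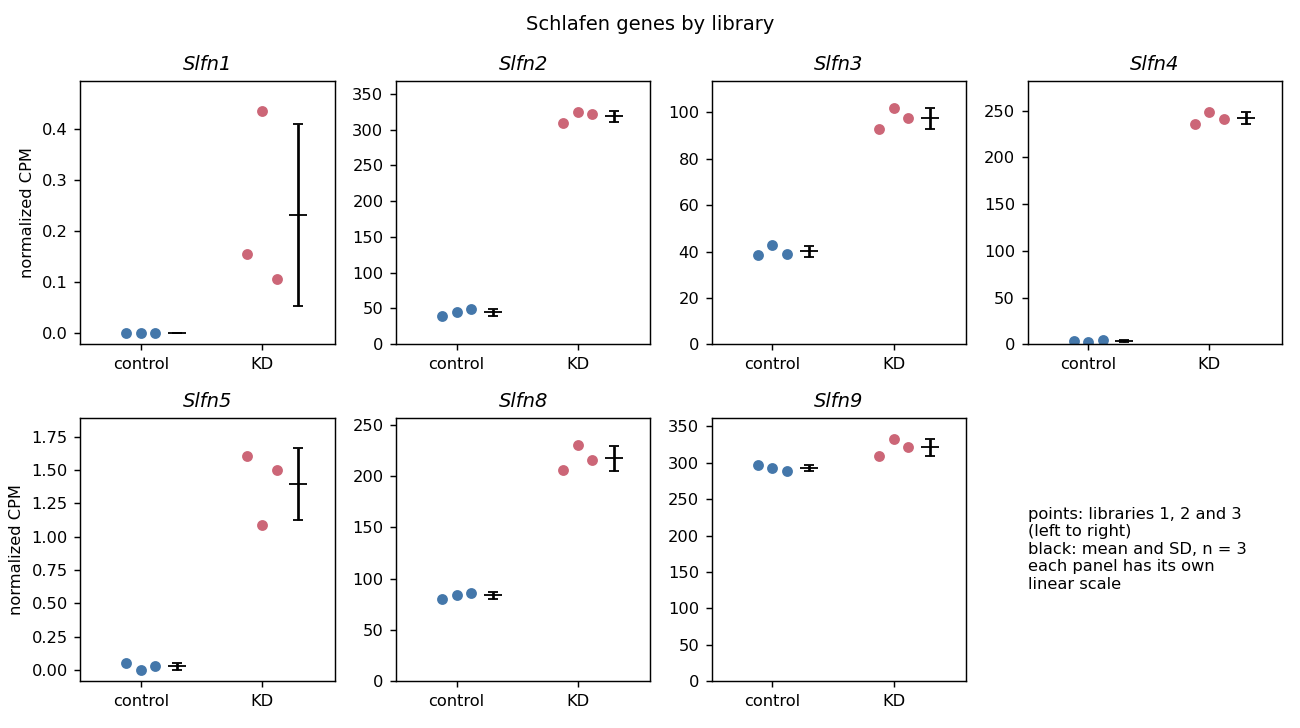
Normalized CPM (vertical axis, a separate linear scale in each panel) of the 7 Schlafen genes in the 3 control and 3 KD libraries. Points are libraries, and black marks give the mean and SD. Slfn4 went from a mean of 3.46 to 241.9, while for Slfn9 the control libraries (288.2 to 297.2) and the KD libraries (309.5 to 332.6) lay close together.

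The log2 fold changes of the 6 genes tested were spread widely. Slfn4 (6.13) and Slfn5 (5.56, standard error 0.70) lay highest, and the gap between them was smaller than the standard error of Slfn5. Slfn2 (2.84) followed, then Slfn8 (1.38) and Slfn3 (1.28), which lay close together, and Slfn9 (0.13) lay lowest. Between the 5th and 95th percentiles, the log2 fold changes of all genes tested spanned −1.57 to 1.79, with a median of −0.0061.

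**Figure D2:**
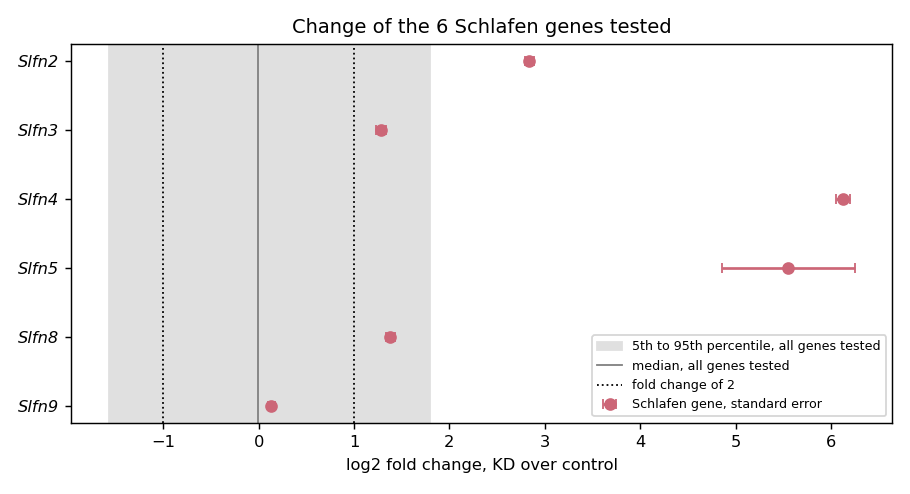
Log2 fold change of KD over control (horizontal axis) for the 6 Schlafen genes tested, with standard errors. The grey band spans −1.57 to 1.79, the 5th to 95th percentiles of all 13497 genes tested. Slfn2, Slfn4 and Slfn5 lie to the right of it, and Slfn3, Slfn8 and Slfn9 lie inside.

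Together the 7 genes took 17264, 17703 and 17643 counts in the control libraries and 44725, 45510 and 45569 in the KD libraries. This was 0.0468% ± 0.000274 of the library in the controls and 0.119% ± 0.00390 in the KD libraries (SD, n = 3). The make-up of these counts also differed. Slfn9 supplied 63.1% ± 1.62 of the family's counts in the controls and 26.8% ± 0.0423 in the KD libraries (SD, n = 3). Slfn4 went from 0.745% ± 0.202 to 20.2% ± 0.209 and Slfn2 from 9.57% ± 0.958 to 26.6% ± 0.352. In contrast, the share of Slfn8 was 18.0% ± 0.489 in the controls and 18.2% ± 0.394 in the KD libraries, and that of Slfn3 was 8.63% ± 0.433 and 8.13% ± 0.0968. The counts are not corrected for transcript length, so these shares compare libraries and not the levels of different genes. In these bulk samples, a change in the number of cells that use a gene and a change in the RNA per cell cannot be told apart.

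**Figure D3:**
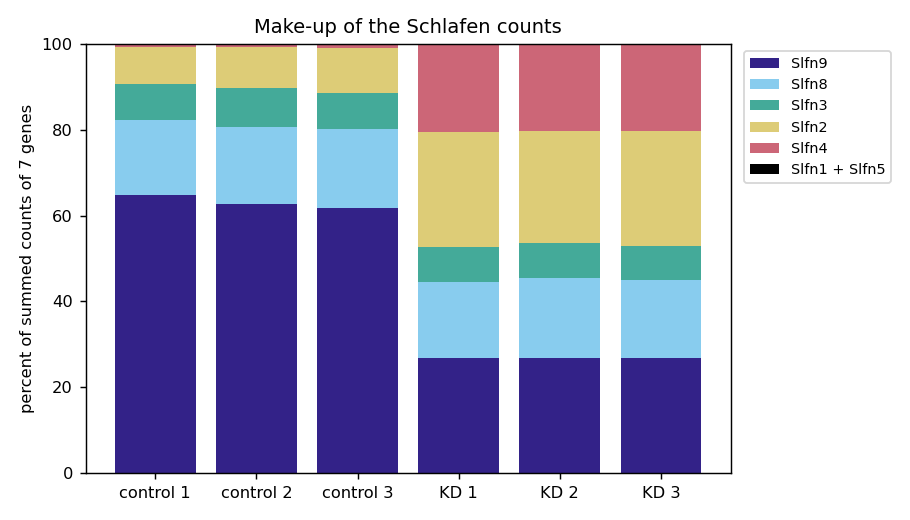
Percent of the summed counts of the 7 Schlafen genes (vertical axis) taken by each gene in each of the 6 libraries (horizontal axis). Slfn9 supplies 61.7% to 64.9% of the counts in the control libraries and 26.8% to 26.9% in the KD libraries, where Slfn2 and Slfn4 supply 26.2% to 26.8% and 20.1% to 20.4%. Slfn1 and Slfn5 are too rare to be seen.

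Other rows of the family were at or below the limit of detection. Slfn14, a long member that cuts ribosome-bound RNA and is known from inherited platelet disorders, had 1 count in all, in KD library 1. Slfnl1, a distant relative, had 1, 3 and 1 counts in the controls and 0, 0 and 2 in the KD libraries. Neither could be compared at this depth.

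Genes of the interferon pathway were taken from 5 lists, of ligands, receptors, mediators, inhibitors and other target genes of interferon. The lists held 46 genes in all, of which 34 were tested. Of the 34, 21 were called higher and 2 lower in the KD libraries, beside 10.2% higher and 9.98% lower among all genes tested. The 21 include all 14 target genes tested, which do not lie between interferon and the Schlafen genes. The median log2 fold change of the 34 genes was 1.88, beside −0.0061 for all genes. Interferon genes were known to be higher in these data when the lists were written, so these counts are no independent evidence.

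Of the interferon ligands, 1 of 10 could be tested. Ifnb1, which encodes interferon beta, had 1, 5 and 1 counts in the controls and 40, 66 and 87 in the KD libraries, and its fitted log2 fold change was 4.71 with a standard error of 0.60. It passed the filter on low counts only through the KD libraries, as Slfn5 did, so no p-value is given. The groups did not overlap, although the gene stayed below 100 counts in every library. Ifna2, Ifna5, Ifnk, Ifnl2 and Ifnl3 had at most 3 counts in every library. Ifna4 had 0 counts in each control library and 2, 5 and 1 in the KD libraries. Ifng had 4, 0 and 0 counts in the controls and 2, 3 and 0 in the KD libraries.

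None of the 5 receptor genes tested was called by edgeR or DESeq2 with the fold threshold. At an adjusted p under 0.05 alone, 1 was higher and 3 were lower, beside 36.7% of all genes in each direction. Ifnar1 and Ifnar2, the chains of the type I interferon receptor, went opposite ways, with log2 fold changes of −0.54 (standard error 0.05) and 0.27 (standard error 0.06).

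Among the JAK, STAT and IRF mediators, 4 of 8 genes were called higher and 1 lower, beside 10.2% and 9.98% of all genes tested. Stat2, a transcription factor activated by the type I receptor, rose from 52.5 ± 4.35 to 226.4 ± 5.05 normalized CPM (SD, n = 3), and its log2 fold change was 2.11 (edgeR's quasi-likelihood test, adjusted p = 3.59e-29). Irf9, the DNA-binding partner of Stat2, rose by 1.04 on the log2 scale, but its change was under the fold threshold with upper quartile scaling (0.997) and without control replicate 1 (0.98). Irf7, which amplifies interferon production, rose by 2.67 on the log2 scale. Tyk2, a kinase of the type I receptor, fell by 1.30 on the log2 scale.

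Of the 6 inhibitors of the pathway, Usp18 (log2 fold change 2.32) and Socs1 (1.15) were called higher and Ptpn6 lower (−2.51). Among all genes tested, the shares were 10.2% and 9.98%. All 14 target genes tested were called higher. The largest changes were those of Rsad2 (5.25), an antiviral enzyme, Ifit3 (4.83), which binds viral RNA with its partners, and the chemokine gene Cxcl10 (3.73). The changes of Slfn4 (6.13) and Slfn5 (5.56) thus lay above the highest of the 14 target genes, that of Slfn2 (2.84) within their range, and those of Slfn3, Slfn8 and Slfn9 below the lowest, Oas3 (1.77). The order of Slfn5 and Rsad2 is within the standard error of Slfn5.

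In the human genome the SLFN genes have neighbours that are not related to them, and 10 of 15 such flanking genes could be tested. Of these, 2 were called higher and 0 lower by edgeR, beside 10.2% and 9.98% of all genes tested, with 0 lower by DESeq2 too. At an adjusted p under 0.05 alone, 5 were higher and 3 lower, beside 36.7% of all genes tested in each direction. The chemokine gene Ccl5 rose from 8.02 ± 0.261 to 60.6 ± 1.599 normalized CPM (SD, n = 3), with a log2 fold change of 2.92 (edgeR's quasi-likelihood test, adjusted p = 7.73e-28). Without control replicate 1, only 1 flanking gene was called higher. Nle1 (0.97) was just under the fold threshold and passed it without control replicate 2 (1.02). Further log2 fold changes were 0.70 for Mmp28, 0.11 for Ap2b1, −0.03 for Lig3, −0.07 for Zfp830, −0.30 for Rad51d, −0.46 for Taf15 and −0.65 for Rffl. Unc45b, the nearest gene on the SLFN5 side, had at most 3 counts in every library.

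**Figure D4:**
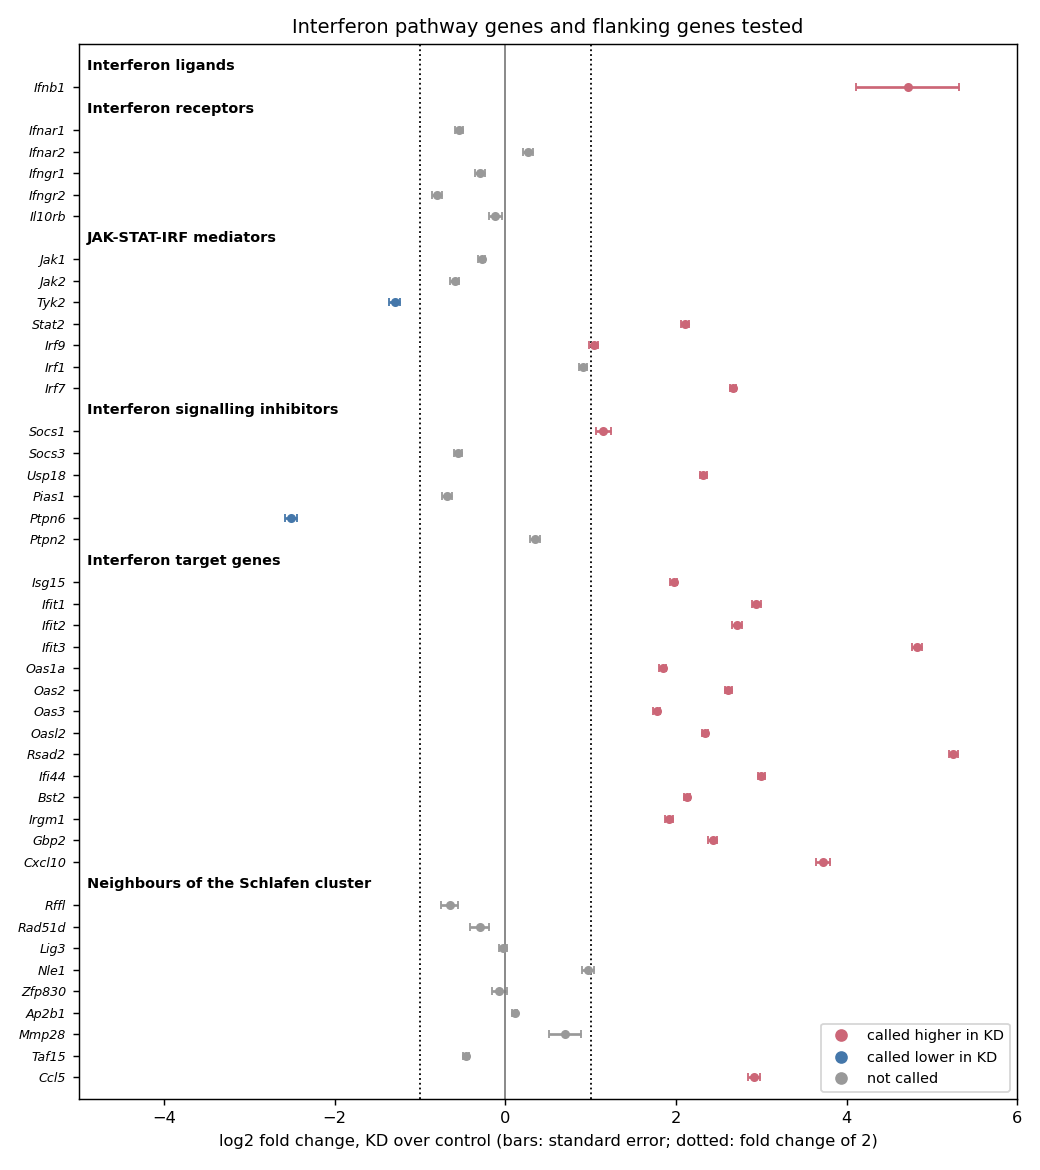
Log2 fold change of KD over control (horizontal axis) with standard errors for tested genes of the interferon pathway and for tested flanking genes. All 14 target genes lie to the right of the fold threshold, from 1.77 for Oas3 to 5.25 for Rsad2, while the 5 receptor genes were not called. Among the flanking genes shown, Ccl5 lies farthest to the right at 2.92.

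Schlafen genes are known for holding cells in quiescence, and 11 other quiescence factors were looked up. Among all genes tested, 10.2% were called higher and 9.98% lower. None of the 11 was called higher by edgeR or DESeq2 with the fold threshold. With an adjusted p under 0.05 alone, 1 was higher and 9 were lower, beside 36.7% of all genes tested in each direction. Of the 11, 3 were called lower. These were Cdkn1b (log2 fold change −1.54), an inhibitor of cyclin-dependent kinases, Btg2 (−1.47), which restrains growth, and the transcription factor Foxo3 (−1.24). Of 12 G1 cyclins, kinases and regulators, Ccnd2 was called higher, with 3, 1 and 4 counts in the controls and 25, 23 and 28 in the KD libraries, through which alone it passed the filter. Cdkn1a, the p53-induced kinase inhibitor, was called lower, from 257.4 ± 20.8 to 65.9 ± 2.49 normalized CPM (SD, n = 3). Ccnd1, the cyclin D1 gene, was not called, with a log2 fold change of 0.39 (standard error 0.03).

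Among genes that cut transfer RNA or protect it, 6 of 10 could be tested and 1 was called higher, beside 10.2% of all genes tested. This was Ang2, an angiogenin-family ribonuclease gene (log2 fold change 1.65, standard error 0.22). Rnh1, which encodes the inhibitor of these ribonucleases, changed by 0.59 on the log2 scale, and the methyltransferase gene Nsun2 by 0.61, both under the fold threshold. With an adjusted p under 0.05 alone, 5 of the 6 were higher and 0 lower, beside 36.7% of all genes tested in each direction. Ang itself had 0 counts in the controls and 4, 11 and 10 in the KD libraries and was not tested.

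The genes whose profiles over the 6 libraries lay nearest to those of Slfn9 and Slfn2, the members with most counts, were found by the Euclidean distance between log2 profiles centred on the control mean, among 11644 genes. Nearest to Slfn9 were Rab3gap2 (distance 0.0386), Iqgap1 (0.0442) and Tjp1 (0.0480), whose log2 fold changes of 0.13 to 0.15 were as small. Nearest to Slfn2 were Ptx3 (distance 0.202), Ifit1 (0.207) and Ly6e (0.224), with log2 fold changes of 2.92 to 2.95. With 6 libraries in 2 groups this likeness is mostly that of the group difference.

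Schlafen genes are strongly used by leukocytes, so markers of other cell types were counted beside them. Ptprc, the general leukocyte marker, had 12, 5 and 5 counts in the controls and 13, 8 and 8 in the KD libraries, with overlap. Cd3e had 0 counts in all libraries, and Cd8a, Cd8b1, Cd2, Cd22 and Csf1r had at most 3 in every library. Of 12 myeloid markers, 8 were tested and 5 called higher, beside 10.2% of all genes tested. The summed level of the 12 markers was 91.3 to 100.01 CPM in the controls and 201.3 to 227.8 in the KD libraries. Among them S100a9, Lyz2 and Ly6c2 had the largest changes, with overlap between the groups for Ly6c2. Only 5 of 8 B cell markers had a row, and the 1 tested, Pax5, was called higher. Pax5 went from 2.28 ± 0.172 to 70.6 ± 2.09 normalized CPM (SD, n = 3), a log2 fold change of 4.95. Only 6 of 10 T cell markers had a row, and the 1 tested was not called by edgeR (it was higher at an adjusted p under 0.05 alone). Of 11 lung epithelium markers, 10 were tested and 9 called higher, led by Scgb1a1, Sftpc and Sftpa1 with 0 counts in each control library. The summed level of the 11 markers was 38.9 to 43.8 CPM in the controls and 115.1 to 129.9 in the KD libraries. Of 12 kidney markers, 8 were tested and 5 called higher, led by Kap, Umod and Slc34a1, with a summed level of 16.8 to 19.6 against 41.6 to 45.5 CPM. The share called higher among all genes tested was 10.2%. S100a9 and the lung and kidney genes named here passed the filter on low counts only through the KD libraries. The controls alone would not have passed it for Lyz2 (33, 52 and 5 counts) and Ly6c2 (60, 153 and 1) either. The part of these cell types in the Schlafen values was not tested.

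Markers of the labelled cell type were counted in the same way. Their rows carry mouse symbols, so they cannot check the label of a human cell line, and the identity of the cells was not tested. Vim and Cd44, both known to be high in this cell line, had 126885 to 145878 and 32751 to 36274 counts. The stem cell markers Aldh1a3 and Sox2 had at most 4 counts in any library. In this list 9 genes were tested, and 2 were called higher (Aldh1a1 and the drug transporter gene Abcb1a) and 0 lower. Epcam had at most 5 counts. Among 5 endothelial genes tested, 2 were called higher (Cdh5 and Esam) and 1 lower (Tie1). Among 5 fibroblast genes tested, 1 was called higher (Fap) and 2 lower (Dcn and Pdgfra). The 4 epithelial genes tested held 1 called each way (Cdh1 higher and Krt14 lower). The shares among all genes tested were 10.2% higher and 9.98% lower. Cdh5, Esam, Fap, Cdh1 and Aldh1a1 passed the filter on low counts only through the KD libraries, and Tie1 only through the controls. The groups overlapped for Fap, with 10, 5 and 15 counts in the controls and 11, 56 and 14 in the KD libraries. They also overlapped for Krt14, with 7, 30 and 192 against 31, 28 and 19 counts. Each of these 2 calls thus leaned on 1 library, KD library 2 for Fap and control library 3 for Krt14.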

How the data were processed

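RNA was sequenced in 3 LINC00115 KD and 3 control (WT) libraries. Per the study's methods, the authors trimmed adapters and aligned the reads by HISAT2 with hg19 as the reference. The submitters' processing notes name hg38, HISAT2, featureCounts and DESeq2. Neither the annotation nor the strand setting is given in the sources used here. The deposited table holds whole-number counts for 22989 genes without normalization, of which 583 had no count, and 0 columns of values were left unused. Each column was matched to its sample by its name.

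Testing used edgeR 4.0.16 under R 4.3.3 (filterByExpr with a minimum count of 10 and minimum total of 15, TMM, quasi-likelihood test, group only) and Benjamini-Hochberg adjustment over 13497 genes. Calls needed an adjusted p under 0.05 and a fold change over 2, as in the study's methods. The standard error is the log2 fold change divided by the root of F. Normalized CPM use TMM-scaled library totals. DESeq2 1.42.0 and the other alternatives are named in the closing section. Both tools were tested on simulated data. A count of 0 allows 3 counts. Library totals of 36979221 to 38799331 counts set the depth, and intervals cover counting error only.

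The members and the gene lists were chosen with earlier results of these data known. Lists were written by hand from general knowledge. The genes named are all Schlafen rows, the called genes among receptors and mediators, up to 3 called genes each way in every other list, the flanking genes tested, and for each of the 2 members with most counts the 3 nearest genes (pseudocount 0.1 CPM, mean of at least 1 CPM). Some genes counted in the lists are not reported here by name. Other genes were named after their values were seen.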

Additional observations from a re-analysis of the deposited data

How the results depend on the processing

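The alternatives were DESeq2's size factors, upper quartile scaling, library size alone, a minimum of 10 counts in every sample, no filter on low counts, the replicate number as a block, DESeq2's Wald test, no fold-change threshold and each replicate left out. The Schlafen genes called higher numbered between 4 and 6 over these, and 5 in each of the 6 fits that left out a library, with 0 called lower. With at least 10 counts in every sample Slfn5 was not tested, and without a filter Slfn1 was tested too (log2 fold change 6.15, standard error 1.75, a value that depends on the prior count). With a library left out, Slfn5 lay between 5.03 and 6.40 on the log2 scale and Slfn4 between 5.996 and 6.37, and Slfn9 ranged from 0.09 to 0.14 over the other alternatives. Without the fold-change threshold 4952 genes were higher and 4960 lower, with 9 interferon pathway genes lower, 5 quiescence and G1 genes higher and 16 lower, 5 transfer RNA genes higher, and 5 flanking genes higher and 3 lower. With at least 10 counts in every sample 903 genes were higher and 0 quiescence and G1 genes, since genes with few counts in either group are then not tested. Without a low-count filter 2 transfer RNA genes were higher. With upper quartile scaling and with library size alone 1 flanking gene was higher, and with a library left out between 1 and 2. The replicate numbers did not pair the libraries, since the correlations of same-numbered deviations were 0.0374, −0.0175 and −0.0225 over genes. With the replicate block, 1360 genes were higher and 1316 lower, and no count for a list changed.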
